A study of Mus musculus with 4 samples.

Results

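S phase crypt cells were the cells of the mouse small intestinal crypt that carried transcripts of the DNA replication machinery. They held fewer transcripts of mitosis than the G2/M cells defined below. They were chosen by a rule on raw UMI counts (unique molecular identifiers, 1 for each captured transcript). A member had less than 20% of its UMIs in alpha-defensin genes (symbols starting with Defa, written Defa% here) and at least 1 UMI of at least 5 of 8 genes, Mcm5, Mcm6, Mcm3, Hells, Lig1, Rrm2, Tcf19 and Atad2. It also had a UMI of fewer than 5 of another 8 genes, Mki67, Top2a, Ube2c, Cenpf, Birc5, Nusap1, Cdca3 and Cenpa. The rule found 333 cells among 15441 cells with Defa% under 20 and 26498 cells in all. The remaining 15108 cells with Defa% under 20 are called other cells below. Of these, 2243 carried a UMI of at least 5 of the 8 mitotic genes and are called G2/M cells. The 11057 cells with a Defa% of 20 or more, which are rich in Paneth cell transcripts, served as a reference for RNA that a cell picks up from its surroundings. The RNA that these cells make themselves was not separated from it, and 866 of them met the G2/M rule. The reference is therefore not a pure background.

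The study asked how loss of the amino acid transporter SLC7A5 from the intestinal epithelium alters the cells of the crypt. Crypts were taken from 8-week-old mice carrying floxed Slc7a5 alleles, either without Cre (label fl/fl, the controls) or with Cre driven by the villin promoter, which is active in intestinal epithelial cells (label IEC-KO, written ΔIEC here). Per the methods, controls and knockouts came from the same litters, shared cages and were paired by sex and age, and the Cre line had been backcrossed to C57BL/6J. Live EpCAM+ CD45- cells were sorted and sequenced with the 10x 3′ kit, with 2 libraries for each genotype. The labels name 4 mice but do not say how they were divided over the libraries, so p-values measure the spread between these libraries only. Values of single libraries are given below in 1 fixed order, fl/fl 1, fl/fl 2, ΔIEC 1 and ΔIEC 2.

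Cells in S phase copy their DNA. Before S phase, the origin recognition complex, CDC6 and CDT1 load the MCM helicase onto replication origins. CDC45 and the GINS complex then activate it, and DNA polymerases, the sliding clamp PCNA, the clamp loader RFC and DNA ligase I build the new strands while ribonucleotide reductase and thymidylate synthase supply deoxynucleotides. Genes of this machinery are switched on by E2F transcription factors at the G1/S transition, whereas genes of mitosis are switched on later. In the crypt, dividing cells are the stem cells at the base and the transit amplifying cells above them.

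The libraries held 3633, 3217, 10004 and 9644 cells with 113529509, 119339206, 87922473 and 127094508 UMIs. S phase cells numbered 53, 46, 81 and 153. Their summed UMIs were 615839, 561293, 628403 and 1549394, and their median UMIs per cell were 10330, 11468.5, 6530 and 9277. The fl/fl libraries held no cell below 8909 and 9670 UMIs, whereas the ΔIEC libraries reached down to 3843 and 5858. Of the S phase cells, 67.9% and 71.7% lay within 25% of that lower limit in the fl/fl libraries, against 12.3% and 18.3% in the ΔIEC libraries. Depth and genotype therefore cannot be told apart in the counts as deposited, and values for cells thinned to equal depth are given for the shares and for many of the gene calls. Pairs of libraries shared between 14 and 132 barcodes, and no S phase cell shared its barcode with an S phase cell of another library.

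Slc7a5 itself was close to its detection limit in S phase cells, with 1, 2, 2 and 2 UMIs, or 1.62, 3.56, 3.18 and 1.29 CPM (UMIs of the gene scaled to the same total of the class in each library). It was too low to be tested. The deleted part is the first exon, and the 3′ reads of this kit come from the other end of the transcript, so this level does not check the genotype. The libraries are therefore taken as labelled throughout. Slc3a2, the heavy chain that carries SLC7A5 and related transporters to the membrane, stood at 50.3, 57.0, 87.5 and 85.2 CPM. Its fold change, given as log2 of ΔIEC over fl/fl with the standard error (SE) throughout, was 0.74 (SE 0.22, edgeR adjusted p = 0.0573), which missed the threshold of 0.05.

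Most S phase cells met the rule narrowly. Of the members, 27, 20, 53 and 78 carried exactly 5 of the 8 S phase genes, and 5, 1, 1 and 2 carried all 8. Just outside lay 24, 21, 105 and 82 cells with 4 S phase genes and 19, 17, 14 and 31 cells with at least 5 S phase genes but exactly 5 mitotic genes. In all, 69, 60, 39 and 76 cells met both the S phase rule and the G2/M rule and were counted as G2/M cells. The Defa limit moved few cells, since 2, 1, 5 and 5 members had a Defa% between 15 and 20 and 1, 0, 2 and 2 cells that met the rule otherwise lay between 20 and 25. A search for cells near simulated doublets marked 0, 0, 13 and 9 members.

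The promoters of the genes that defined the cells are shown because they carry different control sequences. Each line gives the 200 bases before the transcription start from RefSeq (GRCm38.p6), 5′ to 3′ on the strand of the gene. In the S phase genes, the capitals mark matches to E2F letters (TTTCCCGC, TTTGGCGC, TTTCGCGC or TTTGCCGC on either strand, overlapping matches joined).
Mcm5, chr8:75109309-75109508 (+ strand): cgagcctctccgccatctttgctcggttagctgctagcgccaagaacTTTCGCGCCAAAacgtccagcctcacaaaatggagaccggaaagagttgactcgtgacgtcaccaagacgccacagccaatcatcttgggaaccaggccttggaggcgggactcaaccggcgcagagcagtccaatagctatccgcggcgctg
Mcm6, chr1:128359706-128359905 (− strand): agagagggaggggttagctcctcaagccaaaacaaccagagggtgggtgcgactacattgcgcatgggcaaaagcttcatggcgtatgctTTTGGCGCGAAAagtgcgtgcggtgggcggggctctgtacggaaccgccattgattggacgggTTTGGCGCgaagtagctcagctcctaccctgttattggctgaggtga
Hells, chr19:38930790-38930989 (+ strand): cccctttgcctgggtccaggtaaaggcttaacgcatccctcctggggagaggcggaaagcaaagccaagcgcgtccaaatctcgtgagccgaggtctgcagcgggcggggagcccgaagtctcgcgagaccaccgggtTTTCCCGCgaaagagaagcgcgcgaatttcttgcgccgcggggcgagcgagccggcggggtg
In the genes used for G2/M, the capitals mark matches to the cell cycle homology region or CHR (TTTGAA or TTCGAA on either strand), an element known from promoters of mitotic genes.
Mki67, chr7:135716380-135716579 (− strand): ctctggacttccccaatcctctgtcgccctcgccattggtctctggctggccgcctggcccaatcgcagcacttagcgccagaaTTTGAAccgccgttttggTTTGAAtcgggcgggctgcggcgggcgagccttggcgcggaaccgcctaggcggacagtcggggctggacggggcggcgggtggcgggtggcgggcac
Top2a, chr11:99024190-99024389 (− strand): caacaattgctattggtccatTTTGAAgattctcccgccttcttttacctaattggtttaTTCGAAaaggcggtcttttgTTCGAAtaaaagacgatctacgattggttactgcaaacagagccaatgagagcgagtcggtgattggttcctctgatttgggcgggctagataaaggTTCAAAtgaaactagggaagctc
Ube2c, chr2:164769729-164769928 (+ strand): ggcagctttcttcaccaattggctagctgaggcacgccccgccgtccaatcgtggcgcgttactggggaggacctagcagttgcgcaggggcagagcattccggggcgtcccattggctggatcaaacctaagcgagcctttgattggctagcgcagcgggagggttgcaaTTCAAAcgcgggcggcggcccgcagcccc

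In windows from 250 bases before to 50 bases after the start, 5 of the 7 S phase rule genes with a window (71.4%) held E2F letters, compared with 704 of 27025 genes in all (2.61%) and 0 of the 8 mitotic rule genes. The CHR letters were found in 6 of the 8 mitotic rule genes (75%) and in 0 of the 7 S phase rule genes, against 5854 genes in all (21.7%). Among genes that the rule did not use, E2F letters were held by 6 of 11 origin licensing genes (54.5%), 5 of 10 DNA polymerase genes (50%), 6 of 22 fork checkpoint and repair genes (27.3%), 2 of 9 helicase activation genes (22.2%), 3 of 14 chromatin assembly genes (21.4%), 3 of 16 clamp and lagging strand genes (18.8%), 0 of 10 deoxynucleotide supply genes and 3 of 38 mitosis genes (7.89%). CHR letters were held by 28 of the 38 mitosis genes (73.7%). A match is a description of the sequence and not a measured binding site.

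The genes of the rule differed between the classes by construction and are given as a description only. Hells, a chromatin remodeler of replicating heterochromatin, stood at 183, 201, 191 and 180 CPM in S phase cells and at 25.2, 25.3, 15.6 and 15.1 in other cells. Lig1, the ligase that joins Okazaki fragments, reached 221, 205, 202 and 217 against 36.7, 37.1, 23.2 and 24.8. Mcm5, a subunit of the helicase, reached 110, 89.1, 124 and 108 against 14.8, 15.5, 10.3 and 9.30. All 8 S phase genes together summed to 971, 957, 1057 and 935 CPM in S phase cells, 143, 139, 91.0 and 89.3 in other cells, and 25.1, 23.5, 23.4 and 29.7 in cells with a Defa% of 20 or more. Rrm2, the small subunit of ribonucleotide reductase, stood at 101, 82.0, 100.3 and 93.6 CPM in S phase cells, above other cells in every library (17.6, 17.6, 9.88 and 9.84).

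The label of the cells was checked on replication genes outside the rule. Most of these also stood higher in S phase cells than in other cells. Pcna, the sliding clamp, stood at 117, 121, 95.5 and 108 CPM in S phase cells. It stood at 24.9, 24.4, 16 and 18.6 in other cells, at 39.9, 38.6, 32.8 and 38.9 in G2/M cells and at 4.29, 3.78, 4.92 and 6.49 in cells with a Defa% of 20 or more. The S phase cells were highest in every library, with no overlap between the classes. With every cell thinned to 3500 UMIs, 18 of 53, 17 of 46, 20 of 81 and 61 of 153 S phase cells kept a Pcna UMI. These shares of 34.0% (95% exact interval 21.5 to 48.3), 37.0% (23.2 to 52.5), 24.7% (15.8 to 35.5) and 39.9% (32.1 to 48.1) compare with 1.26%, 1.67%, 1.62% and 2.05% in cells with a Defa% of 20 or more, whose median depths before thinning were 45328.5, 51663, 11753 and 17427.5 UMIs. The intervals cover counting error only. Because genes of the same cycle had chosen the members, this contrast was not tested.

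**Figure D1:**
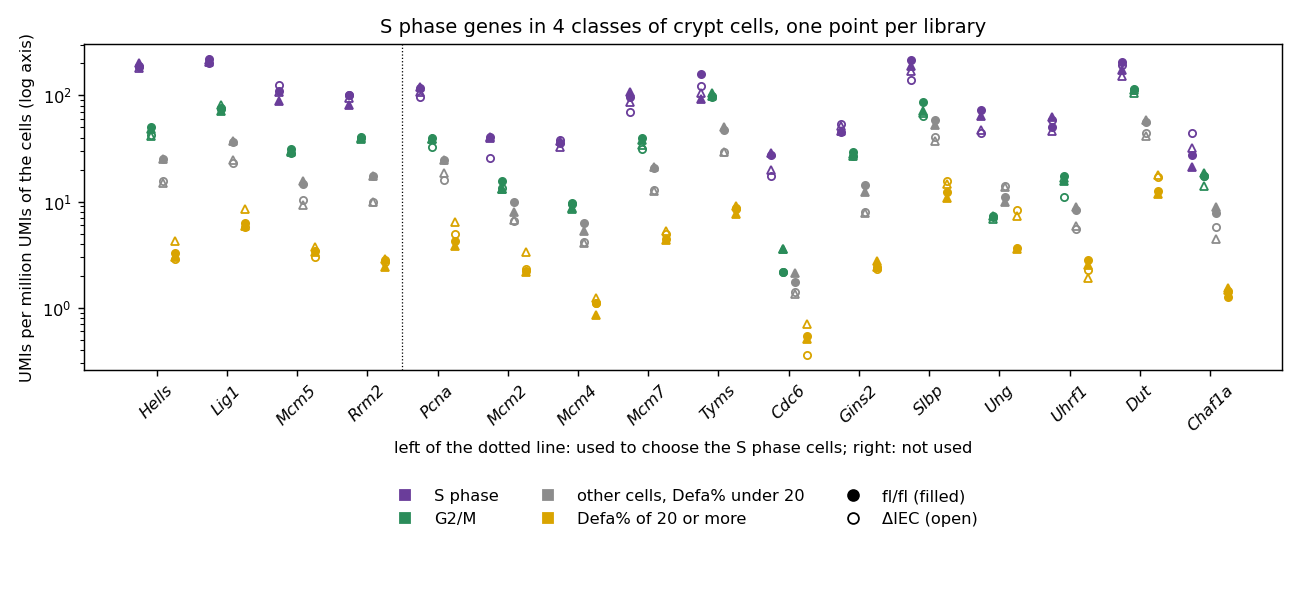
CPM (log axis) of S phase genes in S phase cells, G2/M cells, other cells and cells with a Defa% of 20 or more, with 1 point per library. The rule used the genes left of the dotted line, and on both sides of it the S phase cells sit above the other cells in every library. Pcna, right of the line, runs from 95.5 to 121 in S phase cells.

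Across 7 lists of replication genes, none of them genes of the rule, 94 genes had a mean of at least 10 CPM. Of these, 86 (91.5%) were higher in S phase cells than in other cells in all 4 libraries. Among all 6197 genes at that level, 1936 (31.2%) were. Against G2/M cells the counts were 67 of 94 (71.3%) and 771 of 6197 (12.4%). The counts describe the cells and were not tested.

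Among the licensing factors, Cdc6, the loader of the helicase, stood at 27.6, 28.5, 17.5 and 20.0 CPM in S phase cells, at 1.75, 2.12, 1.41 and 1.35 in other cells and at 2.18, 3.59, 2.19 and 3.59 in G2/M cells. The helicase subunit Mcm7 stood at 95.8, 107, 70.0 and 86.5 in S phase cells against 20.7, 21.0, 13 and 12.4 in other cells. Summed over its 13 genes, the origin licensing list was 4.01, 3.36, 3.99 and 4.41 times the level of other cells and 2.54, 2.08, 2.04 and 2.14 times that of G2/M cells. The 14 genes of helicase activation, which include the GINS subunits, stood at 2.53, 2.76, 3.53 and 3.48 times the level of other cells. The ratio to other cells was thus higher in both ΔIEC libraries for this list, where the other cells were themselves lower in replication genes.

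The replication fork and its supply showed smaller ratios than origin licensing in every library. DNA polymerase subunits summed to 2.03, 1.96, 2.08 and 2.06 times the level of other cells. The clamp and lagging strand list stood at 2.54, 2.40, 3.36 and 3.15 times, with Rpa2, a subunit of the single-strand binding protein, at 109, 78.4, 97.1 and 74.9 CPM. Deoxynucleotide supply reached 1.63, 1.55, 2.01 and 1.95 times, and within it Dut, which clears dUTP, stood at 205, 175, 193 and 154 CPM against 56.7, 59.1, 44.4 and 41.5 in other cells. Tyms, thymidylate synthase, was not ordered the same way in every library, at 158, 92.6, 123 and 105 in S phase cells and 97.5, 105, 98.6 and 98.4 in G2/M cells.

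Of the 28 genes of the E2F and G1/S list, 16 were higher and 5 lower in S phase cells than in G2/M cells in all 4 libraries, and their sum was 1.23, 1.19, 1.15 and 1.14 times that of G2/M cells. Some of these genes showed wide gaps. Ung, the uracil DNA glycosylase, stood at 73.1, 64.1, 44.6 and 47.1 CPM in S phase cells and at 7.20, 7.37, 7.35 and 6.93 in G2/M cells, a log2 ratio of 2.00 to 2.68 (with 5 CPM added to both levels). E2f1, a transcription factor that drives S phase entry, stood at 34.1, 33.9, 28.6 and 35.5 and lay 1.43 to 2.03 above G2/M cells on that scale. The cyclins of S phase entry Ccne1 (21.1, 39.2, 23.9 and 23.9) and Ccne2 (29.2, 26.7, 15.9 and 39.4) lay 1.12 to 2.27 and 1.58 to 2.17 above G2/M cells. Slbp, which binds the stem loop of histone transcripts, stood at 214, 189, 138 and 170 against 85.9, 71.3, 64.4 and 68.6 in G2/M cells. All libraries of the S phase cells lay above all libraries of the G2/M cells for these 5 genes.

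The sums of the chromatin assembly and cohesin lists, in contrast, were lower in S phase cells than in G2/M cells. The 16 chromatin assembly genes, histone chaperones among them, summed to 0.846, 0.804, 0.819 and 0.874 times the level of G2/M cells, with the histone variant H2afz the most abundant, while 9 of the 16 genes were higher in S phase cells in all 4 libraries and 3 lower. The 13 cohesin genes stood at 0.818, 0.862, 0.779 and 0.837 times that level. The 45 mitosis genes stood at 0.329, 0.299, 0.318 and 0.355 times, with no gene higher in S phase cells in all 4 libraries. Against other cells the mitosis list stood at 0.754, 0.667, 1.43 and 1.40 times, so its direction differed between the genotypes, where the other cells summed to 1501, 1525, 689 and 696 CPM. G2/M cells made up 32.1%, 33.3%, 9.43% and 12.2% of the cells with Defa% under 20.

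The 15 genes outside the rule with the largest smallest ratio to other cells were Pcna, Mcm7, Rpa2, Slbp, Hat1, Nasp, Dnajc9, Dut, Rfc3, Siva1, Gmnn, Dnmt1, 2810417H13Rik, Rfc2 and Dek. They include the histone acetyltransferase Hat1, the histone chaperones Nasp and Dnajc9, the licensing inhibitor Gmnn and the maintenance DNA methyltransferase Dnmt1. 2810417H13Rik, the PCNA-binding factor also named Pclaf, stood at 450, 456, 452 and 396 CPM, and was 1.31 to 2.34 above other cells but only 0.05 to 0.19 above G2/M cells on the log2 scale. The 10 lowest genes by the same measure, the smallest ratio of any library, included Fabp6, Gip, Rbp2, Fabp1, Apoa1, Zg16, Spink1, Hist1h2bc and Tac1. A low ratio in a single library was enough for a place here. Gip stood higher in S phase cells than in other cells in fl/fl 2. Fabp6, the ileal bile acid binding protein, stood at 141, 248, 197 and 194 CPM in S phase cells and at 990, 899, 467 and 469 in other cells. Zg16, a goblet cell lectin, stood at 6727, 7303, 4502 and 5785 against 15798, 16081, 12725 and 12069.

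Lineage markers gave a mixed picture of what these cells were besides dividing. The summed absorptive list stood at 10108, 9385, 8538 and 7319 CPM, or 0.566, 0.50, 0.644 and 0.578 times the level of other cells. The goblet list stood at 100005, 117830, 107762 and 111332, or 0.709, 0.870, 0.740 and 0.760 times, and the Paneth list at 72602, 81729, 83028 and 79090, or 0.906, 0.953, 0.909 and 0.813 times. With all cells thinned to 3500 UMIs, a UMI of Muc2, the main goblet mucin, was found in 96.2%, 93.5%, 98.8% and 100% of S phase cells and in 98.4%, 98.0%, 99.8% and 100% of cells with a Defa% of 20 or more. A share this alike in every class says nothing about expression in S phase cells, and the part of free RNA in these lists was not tested. Alpha-defensins made up a median Defa% of 4.03, 4.92, 2.70 and 3.51 of the members.

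The stem cell list summed to 484, 469, 384 and 465 CPM, with the ion transporter Slc12a2 the most abundant, or 1.28, 1.19, 1.13 and 1.2 times the level of other cells, and 9 of its genes were higher and 0 lower in all 4 libraries. Against G2/M cells the list stood lower, at 0.954, 0.892, 0.824 and 0.928 times, with 2 genes higher and 4 lower in all 4 libraries. Lgr5, the receptor that marks crypt base stem cells, was found after thinning in 3 of 53, 1 of 46, 1 of 81 and 2 of 153 S phase cells, or 5.66% (95% exact interval 1.18 to 15.7), 2.17% (0.0550 to 11.5), 1.23% (0.0313 to 6.69) and 1.31% (0.159 to 4.64). In cells with a Defa% of 20 or more the shares were 1.21%, 1.18%, 2.08% and 1.77%, within these intervals. Lgr5 was thus not detectable above this reference at this depth. Olfm4, another stem cell marker, was found in 3, 4, 1 and 1 S phase cells, or 5.66%, 8.70%, 1.23% and 0.654%, against 0.748%, 1.91%, 0.662% and 0.535%. The exact intervals in the fl/fl libraries (1.18 to 15.7 and 2.42 to 20.8) lay above these shares, and those in the ΔIEC libraries (0.0313 to 6.69 and 0.0165 to 3.59) held them. Atoh1, the transcription factor of the secretory lineage, was found in 28.3%, 34.8%, 37.0% and 25.5% of S phase cells and in 8.88%, 8.19%, 20.5% and 20.3% of cells with a Defa% of 20 or more. Its shares in other cells, 27.2%, 27.3%, 32.5% and 33.5%, overlapped those of S phase cells.

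The sort was reflected in the lists of other cell types. The epithelial list, led by Krt8, summed to 6299, 5927, 5258 and 5065 CPM in S phase cells. Immune markers summed to 9.74, 7.13, 3.18 and 9.04, with Lyz2 the most abundant and Cd3e, Cd3g, Cd8a, Cd79a, Ms4a1, Nkg7, Cd52 and Laptm5 at 0 in every library. Stromal markers summed to 0, 0, 4.77 and 1.29, with Col1a1, Col1a2, Col3a1, Dcn, Lum, Acta2 and Cdh5 at 0. No gene of the immune, stromal or tuft lists was abundant enough to be tested between genotypes. Enteroendocrine markers summed to 615, 714, 934 and 924 and tuft markers to 32.5, 78.4, 22.3 and 45.8 CPM.

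S phase cells also differed among themselves along the number of mitotic genes they carried, which the rule allowed up to 4. Members with 0 or 1 mitotic gene numbered 5, 12, 32 and 38, and members with 3 or 4 numbered 31, 27, 28 and 78. From the first to the second of these sets, the mitosis list stood at 1.85, 1.62, 1.70 and 1.91 times, as the split itself would give. The clamp and lagging strand list stood at 1.50, 1.11, 1.41 and 1.60 times and Hmgb2, a chromatin protein abundant in dividing cells, at 2.29, 1.46, 2.07 and 1.75 times. Origin licensing genes stood at 1.05, 0.742, 0.876 and 1.01 times and deoxynucleotide supply at 1.14, 1.1, 1.05 and 1.06 times. These ratios rest on 5 cells in fl/fl 1 and are a description without a test.

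The share of S phase cells was compared between the genotypes over the 4 libraries. They made up 3.55% (95% exact interval 2.67 to 4.62), 3.90% (2.87 to 5.17), 1.21% (0.964 to 1.50) and 2.51% (2.13 to 2.94) of cells with Defa% under 20. The fl/fl mean was 3.73% ± 0.251 (SD, n = 2) and the ΔIEC mean 1.86% ± 0.919 (SD, n = 2), a difference of -1.86 percentage points with no overlap of the libraries. An exact two-sided permutation test gave p = 0.333, the smallest p that 2 libraries against 2 allow. With cells thinned to 3500 UMIs, both limits of the rule, S phase and mitotic, were set at 3 of 8 genes. The shares were then 2.68%, 2.88%, 2.16% and 2.17%, a difference of -0.622 points (exact permutation p = 0.333). When only cells of at least 9670 UMIs were kept, the shares were 3.32%, 3.90%, 2.25% and 3.92%, the libraries overlapped, and the difference was -0.530 points (exact permutation p = 1). With no limit on Defa%, the shares of all cells were 1.60%, 1.65%, 0.860% and 1.62%. The libraries overlapped there too, and the difference was -0.383 points (exact permutation p = 0.667).

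The number of S phase cells relative to G2/M cells depended on the rule and the depth. There were 11.1, 11.7, 12.9 and 20.6 S phase cells per 100 G2/M cells. After thinning, G2/M cells were those with at least 3 mitotic genes, and S phase cells had fewer than 3. The numbers were then 9.22, 9.58, 20.1 and 17.8, without overlap (exact permutation p = 0.333). Among cells of at least 9670 UMIs they were 8.72, 11.7, 11.4 and 17.9, with overlap, and with the rule of 5 genes kept after thinning 5.96, 3.85, 5.61 and 6.13 (exact permutation p = 0.667 for both). With at least 4 of 8 S phase genes required they were 16.1, 17.1, 29.5 and 31.7, and with no limit on Defa% 6.78, 6.75, 13.1 and 19.2, both without overlap (exact permutation p = 0.333 for both). With at least 6 of 8 S phase genes required they were 5.43, 6.63, 4.44 and 10.1 (exact permutation p = 1). As shares of the sorted cells, these values cannot be read as rates of division.

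**Figure D2:**
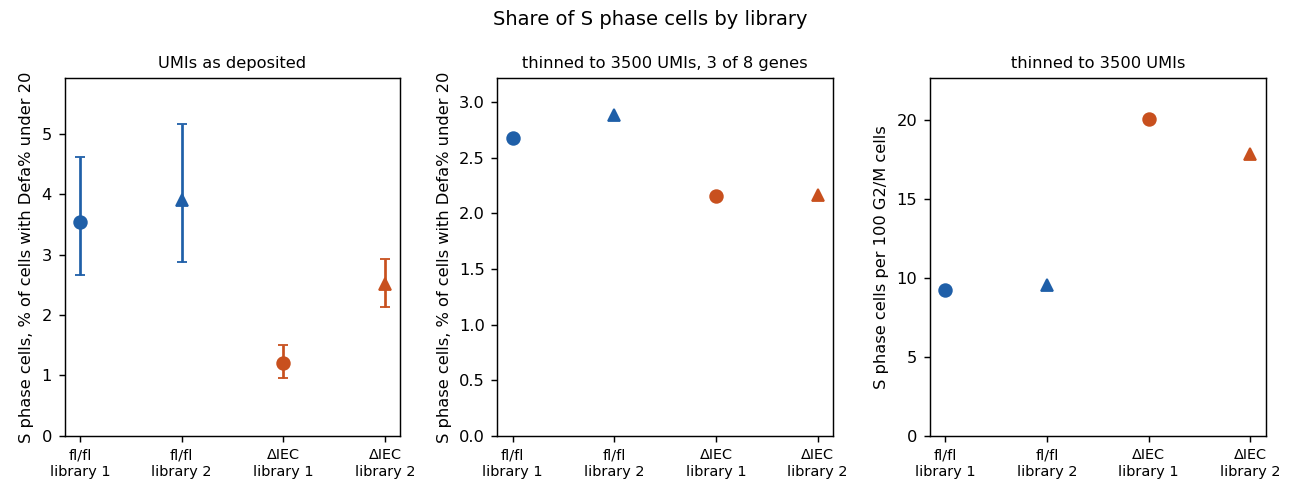
S phase cells by library, as a percentage of cells with Defa% under 20 on the UMIs as deposited (left, bars are 95% exact intervals), as the same percentage after thinning to 3500 UMIs (middle), and per 100 G2/M cells after thinning (right). The ΔIEC libraries lie below the fl/fl libraries in the left and middle panels and above them in the right panel, where they stand at 20.1 and 17.8 against 9.22 and 9.58.

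Changes between the genotypes within S phase cells were tested on the summed UMIs of each library with the quasi-likelihood test of edgeR. Of 4966 genes tested, 72 had a higher level (1.45%) and 55 a lower one (1.11%) in the ΔIEC libraries at an adjusted p below 0.05 (2.56% either way), and 628 had an unadjusted p below 0.05. DESeq2 called 12 higher and 23 lower, but its filter on low means left only 730 of the 4966 genes, and 67 of the 127, with an adjusted p. Cells were also thinned to 3500 UMIs with both limits of the rule at 3 of 8 genes. In these, 14 of the 72 and 20 of the 55 genes were called again. In cells above the common lower limit of 9670 UMIs 33 and 6 were. Both settings leave fewer UMIs to test. The libraries of the 2 genotypes did not overlap for 70 of the 72 and 53 of the 55 genes, against 2030 of the 4966 genes tested (40.9%). In bulk sums such as these, fewer cells with a transcript and less transcript per cell cannot be told apart. Members of the sets below are counted against these percentages and not tested as sets.

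Of the replication genes, 1 was called between the genotypes. Of 117 genes in the 7 replication lists, 81 passed the filter, 0 were called higher and 1 lower, and their median log2 fold change was -0.06 (range -0.87 to 0.65), with 70 of the 81 within 0.5 and a median SE of 0.25. The median of all genes tested was 0.01. Above the common lower limit the medians of all 7 lists were below 0, from -0.39 for chromatin assembly and -0.37 for origin licensing to -0.11 for helicase activation, with that of all genes at -0.0044. Rbbp7, a histone chaperone, stood at 172, 162, 115 and 96.2 CPM and fell by 0.64 (SE 0.17, edgeR adjusted p = 0.0294), a call lost, at a similar size, in thinned cells (-0.69, edgeR adjusted p = 0.336), above the common lower limit (-0.65, edgeR adjusted p = 0.186) and with any 1 library left out (-0.49 to -0.73). Cdc6, at 27.6 and 28.5 against 17.5 and 20.0 CPM, had a log2 fold change of -0.48 (SE 0.35, edgeR adjusted p = 0.620). The 18 mitosis genes tested had a median of -0.03 with 0 called by edgeR, 0 given an adjusted p by DESeq2, and 1 in each direction at an unadjusted p below 0.05. A p that missed the threshold does not show that these levels were alike.

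Control genes of the cycle and related sets gave few calls. In the E2F and G1/S list, 0 of 18 genes tested were called by edgeR or among the 2 with an adjusted p from DESeq2, and 0 had an unadjusted p below 0.05, with a median of -0.14. In the p53 target list, 0 of 5 were called by edgeR, 0 had an adjusted p from DESeq2 and 0 an unadjusted edgeR p below 0.05, with a median of 0.06, and Cdkn1a, the cyclin-dependent kinase inhibitor p21, stood at 77.9, 114, 85.9 and 65.2 CPM. In purine and pyrimidine synthesis, 1 of 14 genes was called. Impdh2, which makes the guanine nucleotide precursor xanthosine monophosphate, stood at 224, 207, 154 and 132 and fell by 0.56 (SE 0.16, edgeR adjusted p = 0.0458), a call lost in thinned cells (-0.34, edgeR adjusted p = 0.708), in DESeq2 (-0.56, adjusted p = 0.219), with doublets left out (-0.51, edgeR adjusted p = 0.109) and with any 1 library left out (-0.43 to -0.63). Hist1h2ap, a replication-dependent histone gene, stood at 557, 164, 208 and 180, so its fall of -0.86 (SE 0.24, edgeR adjusted p = 0.0411) rested on fl/fl 1, without which the log2 fold change was 0.26.

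**Figure D3:**
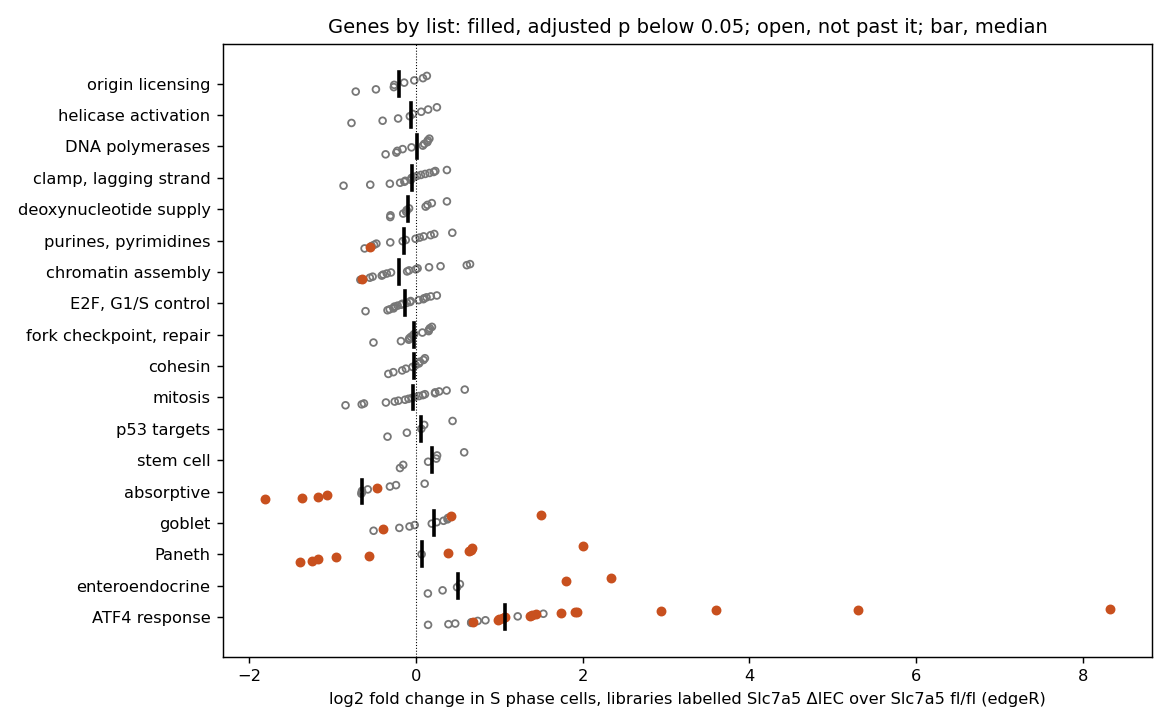
Log2 fold change of ΔIEC over fl/fl in S phase cells (edgeR) for the genes of 18 lists, with 1 circle per gene, filled where the adjusted p was below 0.05, and a bar at the median of each list. Replication, nucleotide synthesis, cohesin and mitosis lists centre near 0 with 2 filled circles among them, whereas 16 of the 25 genes of the ATF4 response list are filled, all to the right.

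One of the lists held the genes of ATF4, the transcription factor made when cells lack amino acids or accumulate misfolded proteins. ATF4 switches on genes of serine and asparagine synthesis, one-carbon metabolism, transfer RNA charging and transport, and stress factors such as DDIT3 and TRIB3. Of 25 genes of this list tested in S phase cells, 16 rose and 0 fell, with a median log2 fold change of 1.06, and the libraries did not overlap for 22. DESeq2 gave an adjusted p to 2 of the 25, Nupr1 and Eif4ebp1, and called both higher. In thinned cells 5 of 22 genes tested were called higher (Nupr1, Trib3, Atf5, Eif4ebp1 and Phgdh), with a median of 0.85, and above the common lower limit 13 of 24, with a median of 1.12. Without fl/fl 1 the list had 9 higher and without ΔIEC 2 10, and 0 lower in both. Summed over the list, S phase cells held 1439, 1432, 3390 and 3638 CPM, and cells with a Defa% of 20 or more 1111, 1022, 4083 and 3747. The part of free RNA in these changes was not tested.

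Stress regulators of this list showed the largest changes. Trib3, a pseudokinase, had 0, 0, 33 and 69 UMIs, or 0, 0, 52.5 and 44.5 CPM. It was at least 14.7-fold higher in the ΔIEC libraries (lower 95% counting limit), or 18.4-fold against a floor of 3 UMIs over both fl/fl libraries. After thinning, it was found in 0 of 53 and 0 of 46 fl/fl S phase cells (upper exact limits 6.72% and 7.71%) and in 10 of 81 and 17 of 153 ΔIEC S phase cells (12.3% and 11.1%). In cells with a Defa% of 20 or more the shares were 0.234%, 0.147%, 25.5% and 22.2%, so the shares of the ΔIEC S phase cells lay below this reference and cannot be read as expression in the cells that carried them. Chac1, which degrades glutathione, had 1 UMI in the fl/fl libraries together and 82 in the ΔIEC libraries, a ratio of 44.3 with a 95% counting interval of 7.74 to 1772. Atf5, a related transcription factor, stood at 11.4, 0, 68.4 and 72.3 CPM (log2 fold change 3.60, SE 0.42, edgeR adjusted p = 1.24e-07), and its log2 fold change ran from 2.72 to 9.03 with 1 library left out, since fl/fl 2 was at 0. Ddit3, the factor also named CHOP, stood at 8.12, 10.7, 71.6 and 69.1 (2.94, SE 0.34, edgeR adjusted p = 9.29e-08). In thinned cells Ddit3 had a log2 fold change of 1.93 and missed the threshold (edgeR adjusted p = 0.235).

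Nupr1, a small stress-induced chromatin protein, was the most abundant member, at 331, 378, 1214 and 1337 CPM in S phase cells (log2 fold change 1.90, SE 0.13, edgeR adjusted p = 4.53e-14). Atf4 itself stood at 92.6, 92.6, 181 and 184 (1.04, SE 0.17, edgeR adjusted p = 0.000128). Both ΔIEC libraries lay above both fl/fl libraries for each, and in thinned cells Atf4 missed the threshold (0.82, edgeR adjusted p = 0.317). Eif4ebp1, an inhibitor of cap-dependent translation, stood at 123, 110, 309 and 277 (1.36, SE 0.16, edgeR adjusted p = 1.34e-07).

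Several enzymes of amino acid and one-carbon synthesis were among the 16. Phgdh, the first enzyme of serine synthesis, stood at 27.6, 32.1, 98.7 and 94.2 CPM (log2 fold change 1.74, SE 0.24, edgeR adjusted p = 4.34e-06). Psat1, the next enzyme, stood at 39.0, 26.7, 90.7 and 84.5 (1.44, SE 0.24, edgeR adjusted p = 0.000136), and Psph, the last, at 19.5, 14.3, 54.1 and 67.1 (1.94, SE 0.31, edgeR adjusted p = 4.3e-05). In none of the 3 did the genotypes overlap. Mthfd2, a mitochondrial folate enzyme, stood at 87.7, 85.5, 148 and 177 (0.99, SE 0.18, edgeR adjusted p = 0.000489), and Asns, asparagine synthetase, at 65.0, 67.7, 113 and 134 (0.99, SE 0.20, edgeR adjusted p = 0.00148). Shmt2 (1.04), Cth (1.39), Sars (1.06) and Wars (0.68) also rose. In thinned cells Psat1 (0.17), Shmt2 (0.19), Wars (0.43), Mthfd2 (0.88), Sars (1.01), Cth (1.11), Asns (1.22) and Psph (1.85) missed the threshold, with edgeR adjusted p from 0.215 for Psph to 0.961 for Psat1 and Shmt2.

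Not every gene of the list passed the test. Pycr1, a proline synthesis enzyme, had a log2 fold change of 1.53 (edgeR adjusted p = 0.0606), Slc7a1, a transporter of cationic amino acids, 0.83 (edgeR adjusted p = 0.0653) and Gars, glycyl-tRNA synthetase, 0.66 (edgeR adjusted p = 0.0699). In the list of amino acid transporters, 0 of 7 were called by edgeR, 0 had an adjusted p from DESeq2, 3 had an unadjusted p below 0.05, all higher, and the median was 0.45. Outside the ATF4 list, Adm2, a peptide hormone, stood at 0, 0, 31.8 and 29.7 CPM and was at least 11.9-fold higher in the ΔIEC libraries. Pck2, mitochondrial phosphoenolpyruvate carboxykinase, stood at 30.9, 23.2, 46.1 and 71.0 (1.26, SE 0.28, edgeR adjusted p = 0.00633). Pck2 and the tRNA synthetases Nars (0.69) and Tars (0.77), which also rose, were named after their values were seen, and in thinned cells they stood at 0.73, 0.63 and 0.26 and missed the threshold.

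**Figure D4:**
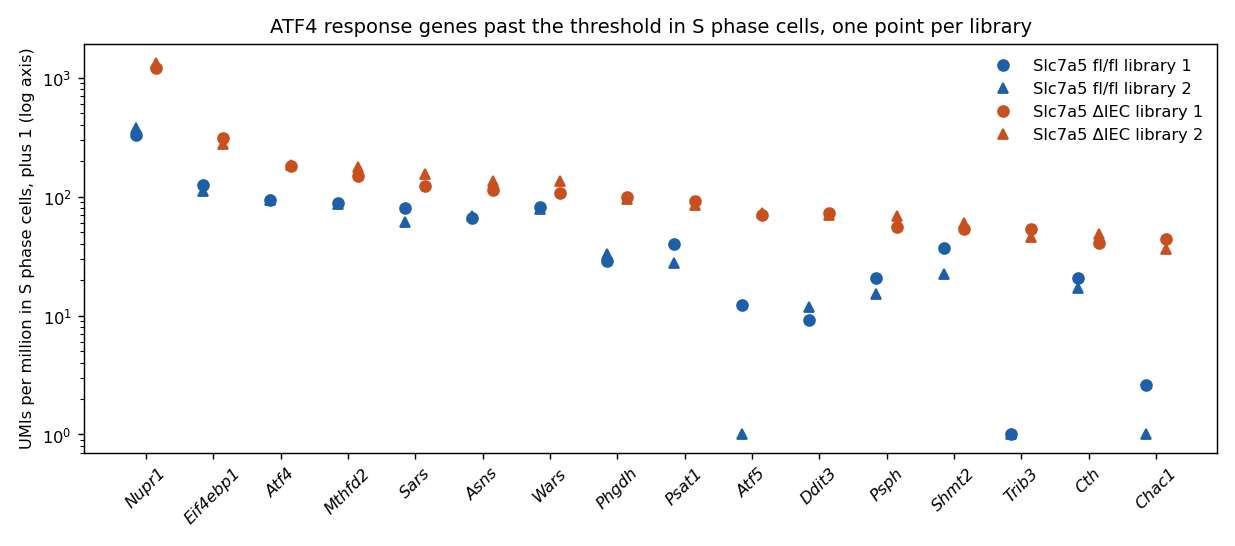
CPM plus 1 (log axis) in S phase cells for the 16 genes of the ATF4 response list past the threshold, with 1 point per library. Both ΔIEC libraries lie above both fl/fl libraries for every gene shown. Nupr1, at the left, runs from 331 and 378 to 1214 and 1337, and Trib3 is at 0 (plotted at 1) in both fl/fl libraries.

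The promoters of Nupr1 and Chac1 are shown as examples of the ATF4 list, with the letters of the C/EBP-ATF response element (CARE, TGATGNAA on either strand) in capitals. Of 30 genes of the list with a promoter window, 10 (33.3%) held these letters, against 1219 of 27025 genes in all (4.51%).
Nupr1, chr7:126625471-126625670 (− strand): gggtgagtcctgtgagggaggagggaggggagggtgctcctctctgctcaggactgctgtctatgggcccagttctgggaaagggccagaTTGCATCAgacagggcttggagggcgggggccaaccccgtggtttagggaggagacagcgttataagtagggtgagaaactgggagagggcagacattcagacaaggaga
Chac1, chr2:119351042-119351241 (+ strand): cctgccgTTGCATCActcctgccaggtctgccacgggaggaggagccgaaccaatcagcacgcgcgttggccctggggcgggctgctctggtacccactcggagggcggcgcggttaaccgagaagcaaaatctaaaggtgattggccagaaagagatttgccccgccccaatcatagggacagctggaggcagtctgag
None of the 30 held the E2F letters, which is near the share of all genes (704 of 27025, 2.61%).

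Rises outside the ATF4 list included metallothioneins and some genes of secretory cells, which were not tested as groups. Mt1, a zinc-binding metallothionein, stood at 287, 224, 1042 and 1065 CPM in S phase cells (log2 fold change 2.09, SE 0.13, edgeR adjusted p = 1.22e-14). Its relatives Mt2 (43.8, 10.7, 60.5 and 124 CPM, log2 fold change 1.91) and Mt3 (26.0, 24.9, 47.7 and 80.0 CPM, log2 fold change 1.50) also rose. With 1 library left out Mt2 ran from 1.16 to 3.28, past the threshold neither without fl/fl 2 nor without ΔIEC 2, and Mt3 ran from 0.95 to 1.72. In thinned cells Mt3 (1.78, edgeR adjusted p = 0.171) missed the threshold. Reg4, a secreted lectin of secretory cells, stood at 585, 853, 2630 and 2684 (1.94, SE 0.13, edgeR adjusted p = 6.19e-14). Retnlb, a goblet cell peptide, stood at 50.3, 19.6, 102 and 117 (1.70, SE 0.25, edgeR adjusted p = 1.38e-05). It ran from 1.23 to 2.54 with 1 library left out, stood at 3.23 with Defa% under 5 and missed the threshold with at least 6 of 8 S phase genes (1.09, edgeR adjusted p = 0.129) and above the common lower limit (1.64, edgeR adjusted p = 0.0513). Foxa3, a transcription factor of the goblet lineage, stood at 135, 139, 201 and 225 (0.71, SE 0.16, edgeR adjusted p = 0.00787), but at 0.34 in thinned cells (edgeR adjusted p = 0.765). It was the only call among 8 genes tested of the Notch and lineage list, whose median was 0.29, and 0 of 6 stem cell genes tested were called by edgeR, had an adjusted p from DESeq2 or an unadjusted edgeR p below 0.05 (median 0.19). The ΔIEC libraries were the higher ones in each of the named genes.

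Enteroendocrine transcripts were called in 2 of 6 genes tested, both higher. Pyy, a gut hormone, stood at 6.50, 7.13, 35.0 and 32.9 CPM (log2 fold change 2.34, SE 0.44, edgeR adjusted p = 0.000671), and Chgb, a granule protein, at 21.1, 10.7, 78.0 and 43.2 (1.80, SE 0.35, edgeR adjusted p = 0.00121). In thinned cells they stood at 1.23 (edgeR adjusted p = 0.528) and 0.83 (edgeR adjusted p = 0.696), and without fl/fl 1 at 2.26 and 2.38, neither past the threshold. Among the other large rises, Nup133, a nuclear pore protein, stood at 4.87, 3.56, 17.5 and 22.6 (2.32, edgeR adjusted p = 0.0124). Above the common lower limit Nup133 stood at 2.66 and missed the threshold (edgeR adjusted p = 0.0605). It ran from 2.05 to 2.56 with 1 library left out. Gm6696 stood at 9.74, 1.78, 17.5 and 45.2. For Gm6696 the log2 fold change of 2.64 ranged from 1.59 to 4.28 with 1 library left out. Ubtf, a factor of RNA polymerase I at ribosomal DNA, stood at 27.6, 17.8, 66.8 and 54.2 (1.40, SE 0.29, edgeR adjusted p = 0.00247), and in thinned cells it stood at 0.54 (edgeR adjusted p = 0.774). Hif1a, a transcription factor of the response to low oxygen that is named here because its sign changed, stood at 16.2, 16, 25.5 and 43.2 (1.27, edgeR adjusted p = 0.0484), and in thinned cells at -0.65 (edgeR adjusted p = 0.774). Without ΔIEC 2 it stood at 0.70 (edgeR adjusted p = 0.889). Hk2, a hexokinase, stood at 61.7, 89.1, 127 and 154 (1.00, SE 0.20, edgeR adjusted p = 0.00141). It missed the threshold in thinned cells (1.46, edgeR adjusted p = 0.0778) and with at least 6 S phase genes (0.96, edgeR adjusted p = 0.102). With 1 library left out Hk2 ran from 0.74 to 1.31.

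The 55 falls included genes of the absorptive and Paneth lists. Apoa4, an apolipoprotein of absorptive cells, stood at 148, 60.6, 27.1 and 29.7 CPM (log2 fold change -1.81, SE 0.27, edgeR adjusted p = 2.17e-05). Apoa1, another apolipoprotein, stood at 789, 403, 296 and 172 (-1.37, SE 0.19, edgeR adjusted p = 6.19e-06). The fl/fl libraries were the higher ones but differed from each other in both genes. In all, 5 of 12 absorptive genes tested fell and 0 rose, with a median of -0.65, the others being the retinol carrier Rbp2 (-1.17) and the fatty acid binding proteins Fabp1 (-1.07) and Fabp2 (-0.47). DESeq2 called 0 of the 6 with an adjusted p, and 2 of 10 were lower in thinned cells, 0 of 14 above the common lower limit and 0 of 13 without fl/fl 1. Apoa4 stood at -1.39 in thinned cells (edgeR adjusted p = 0.294) and at -1.02 without fl/fl 1, Apoa1 at -0.82 without fl/fl 1, and with 1 library left out Rbp2 ran from -0.66 to -1.62 and Fabp1 from -0.56 to -1.57, both missing the threshold without fl/fl 1 and without ΔIEC 2. Fabp1 stood at 0.43 when at least 6 of the 8 S phase genes were required.

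Most alpha-defensin transcripts tested fell on the counts as deposited. Of 10, 6 fell and 2 rose, with a median of -0.69. The rule limited the summed share of genes whose symbols start with Defa, so the values of those genes are a description only. In thinned cells 6 fell and 0 rose (median -1.15). With Defa% under 5, at least 6 S phase genes, doublets left out or DESeq2, 0 rose and 5 or 6 fell. Above the common lower limit, however, only 3 fell and 2 rose (median -0.30). Gm15292 stood at 313, 331, 25.5 and 38.1 CPM (log2 fold change -3.18, SE 0.19, edgeR adjusted p = 4.57e-15) and Defa21 at 4084, 4529, 1144 and 1222 (-1.81, SE 0.11, edgeR adjusted p = 4.57e-15). Defa22 (-1.39) and Gm14851 (-1.26) also fell, and Defa17 (0.66) and Defa24 (0.38) rose. In cells thinned to 3500 UMIs Defa17 stood at 0.27 (edgeR adjusted p = 0.546) and Defa24 took the opposite sign (-0.19). These are near-identical genes between which reads may have been split, so their single values are uncertain. Their sum in S phase cells was 50645, 60138, 54282 and 53803 CPM, against 408891, 437251, 332693 and 342242 in cells with a Defa% of 20 or more. Of the 55 lower genes, 10 were on the Paneth or alpha-defensin lists and 12 stood over 5 times higher in cells with a Defa% of 20 or more than in S phase cells, against 5 and 2 of the 72 higher genes. The part of free RNA in these changes was not tested.

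The Paneth list also holds defensins, which the rule limited. On the counts as deposited, 5 of 11 of its genes were higher and 5 lower, with a median of 0.07. This balance changed with the cells used. In thinned cells 1 was higher and 6 lower (median -0.87), with Defa% under 5 1 and 6 (-0.82), with at least 6 S phase genes 0 and 5 (-0.52), with doublets left out 2 and 5 (-0.14), and above the common lower limit 5 and 2 (0.71). Besides the defensins, Ang4, an antimicrobial ribonuclease, stood at 1275, 1235, 602 and 476 CPM (log2 fold change -1.18, SE 0.12, edgeR adjusted p = 4.46e-09), and Lyz1, Paneth lysozyme, at 7807, 8233, 5476 and 5030 (-0.56, SE 0.10, edgeR adjusted p = 0.000254). Above the common lower limit these stood at -0.61 and -0.05 and missed the threshold, and in thinned cells at -1.44 and -1.20 and passed it. Mmp7, the protease that activates defensins, stood at 917, 1074, 1550 and 1507 (0.67, SE 0.11, edgeR adjusted p = 0.000136). With at least 6 S phase genes Mmp7 missed the threshold (0.43, edgeR adjusted p = 0.531), and without fl/fl 1 it stood at 0.55. Of the 12 goblet genes tested, 2 rose (Mt3 and Ccl9) and 1 fell, Zg16 (-0.39, edgeR adjusted p = 0.0405), with a median of 0.22. DESeq2, thinning, the common lower limit, at least 6 S phase genes and leaving out fl/fl 1 each called 0 of the 12, with Zg16 at -0.20 to -0.48 and Mt3 at 1.22 to 1.78 in these. Sepp1, a selenium transport protein, stood at 27.6, 55.2, 17.5 and 6.45 (-1.99, edgeR adjusted p = 0.00249), but at -1.37 without fl/fl 2, -1.16 without ΔIEC 2 and -1.19 with Defa% under 5, where it missed the threshold. Pdss1, of coenzyme Q synthesis, stood at 39.0, 21.4, 12.7 and 9.68 (-1.46, edgeR adjusted p = 0.0360), and at -0.95 without fl/fl 1, where it missed the threshold.

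Housekeeping sets moved by small amounts. Of 80 cytosolic ribosomal protein genes tested, 3 rose (Rps27, Rpl30 and Rps14) and 1 fell, Rps2, with a median of 0.22 and 43 higher and 1 lower at an unadjusted p below 0.05. Leaving out fl/fl 1 or fl/fl 2 gave 0 in either direction with like medians (0.24 and 0.21), and leaving out ΔIEC 1 gave 11 and 1. Of 13 mitochondrially encoded genes, 5 fell and 0 rose, with a median of -0.27, and their sum was 28529, 27631, 20356 and 21340 CPM. DESeq2 called 4 of these lower, whereas thinning, the common lower limit, at least 6 S phase genes, Defa% under 5 and leaving out fl/fl 1 each gave 0. The median was -0.12 when thinned and between -0.21 and -0.28 in the other 4. Of 10 epithelial genes tested, the keratins Krt8 (-0.38) and Krt19 (-0.47) fell and 0 rose, with a median of -0.09, and both were lost in thinned cells (-0.25 and -0.26, edgeR adjusted p = 0.51 and 0.50). In the lists for enzymatic dissociation and for MHC class II and interferon genes, 0 of 9 and 0 of 8 were called by edgeR, or by DESeq2 among the 2 and 3 with an adjusted p, with 2 lower in the first and 0 in the second at an unadjusted p below 0.05.

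Sex-linked genes differed with the genotype labels. Xist, the long noncoding RNA of the inactive X chromosome, stood at 258, 317, 885 and 927 CPM in S phase cells (log2 fold change 1.71, SE 0.13, edgeR adjusted p = 3.4e-12), and Ddx3y, on the Y chromosome, at 22.7, 19.6, 1.59 and 5.16 (-2.27, SE 0.54, edgeR adjusted p = 0.0114). With 1 library left out Ddx3y ran from -1.94 to -3.52 and missed the threshold each time (edgeR adjusted p = 0.243 to 0.583). Both genes were found in every library, although the methods give the mice as paired by sex. Of the 5 sex-linked genes listed, 1 was called higher and 4 lower in other cells. The same counts held in G2/M cells and in cells with a Defa% of 20 or more. The sex make-up of the libraries and the genotype cannot be told apart in these values, and its part in the other changes was not tested.

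Most genes called in S phase cells were called in the other classes too. Of the 72 higher genes, 69 were called higher in other cells, 61 in G2/M cells and 64 in cells with a Defa% of 20 or more, and 2 were called lower in the last. Of the 55 lower genes, 51, 35 and 48 were called lower, and 3 were called higher in the last class. The shares of all genes called higher and lower were 16.4% and 16.4% in other cells, 3.08% and 1.47% in G2/M cells and 22% and 22% in cells with a Defa% of 20 or more (32.7%, 4.55% and 44% either way). All classes come from the same 4 libraries, so these counts are not independent of each other.

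Whether the genotype change in S phase cells differed from that in other cells was tested with a term for class by genotype. Of 11493 genes, the change was higher in S phase cells for 54 (0.47%) and lower for 31 (0.27%, 0.74% either way), with 856 at an unadjusted p below 0.05. DESeq2 called 14 and 5, with an adjusted p for 1244 genes. Of the 54, 8 belonged to the genes of the rule, whose levels in S phase cells the rule itself limited, and 8 to the mitosis list, and 28 had a positive change in S phase cells and a negative one in other cells. In other cells, where G2/M cells were rarer in the ΔIEC libraries, all 45 mitosis genes fell (median -1.08). With G2/M cells left out of the other cells, 39 genes were higher and 39 lower, of which 6 and 15 were also called with them included.

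Several ATF4 genes rose less in S phase cells than in other cells. Nupr1 reached 2564 and 2407 CPM in other cells of the ΔIEC libraries, from 440 and 425, a difference of changes of -0.76 (edgeR adjusted p = 4.33e-08). Mthfd2 (-0.86, edgeR adjusted p = 0.00338) and Eif4ebp1 (-0.65, edgeR adjusted p = 0.0150) differed likewise. Over the list, the fold change in S phase cells was below that in other cells for 21 of the 25 genes tested in S phase cells and above that in G2/M cells for 18. In other cells 34 of 34 genes of the list rose (median 1.86), and in G2/M cells 28 of 33 (median 1.13). These counts over the list were not tested. Without G2/M cells among the other cells, Nupr1 and Mthfd2 were again lower in S phase cells, and so were Phgdh (-2.02) and Psat1 (-1.19), whereas Eif4ebp1 missed the threshold (-0.51, edgeR adjusted p = 0.148). In thinned cells Nupr1 (-0.54, edgeR adjusted p = 0.347), Mthfd2 (-0.72) and Eif4ebp1 (-0.43) missed it.

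Single genes of secretory cells differed too. Gip, an incretin hormone of enteroendocrine cells, stood at 193, 278, 286 and 355 CPM in S phase cells and at 284, 261, 1136 and 988 in other cells, a difference of changes of -1.55 (SE 0.14, edgeR adjusted p = 6.08e-26). Reg4 (-0.59, edgeR adjusted p = 4.74e-06) and Muc2 (-0.40, edgeR adjusted p = 0.00398) had a smaller change as well. Without G2/M cells among the other cells Reg4 (-0.35, edgeR adjusted p = 0.0781) and Muc2 (-0.04, edgeR adjusted p = 0.970) missed the threshold. DESeq2 gave differences of similar size but called none of Gip (-1.58, adjusted p = 0.0957), Reg4 (-0.56, 0.733) and Muc2 (-0.38, 0.103), and without fl/fl 2 Reg4 stood at -0.18 (edgeR adjusted p = 0.832) and Muc2 at -0.22 (edgeR adjusted p = 0.398). In the opposite direction, Fabp6 differed by 0.93 (edgeR adjusted p = 1.04e-07), since it fell in other cells (-0.86) and had a log2 fold change of 0.07 in S phase cells. DESeq2 did not call it (0.99, adjusted p = 0.519), nor did edgeR without fl/fl 1 (0.49, adjusted p = 0.118). Mt2 (1.17, edgeR adjusted p = 0.00352), Mt3 (1.29, edgeR adjusted p = 0.00203) and Ubtf (1.26, edgeR adjusted p = 0.00632) rose more in S phase cells. Mt2 stood at 2.49 without fl/fl 1, 0.62 without fl/fl 2 (edgeR adjusted p = 0.60) and 0.56 without ΔIEC 2 (edgeR adjusted p = 0.987). Ung, the glycosylase named above, differed by -1.06 (edgeR adjusted p = 0.0117), with a log2 fold change of -0.51 in S phase cells and of 0.55 in other cells. Without G2/M cells among the other cells, Fabp6 (1.45) and Mt3 (1.59) passed the threshold, whereas Mt2 (0.47), Ubtf (1.09, edgeR adjusted p = 0.0544) and Ung (-0.81, edgeR adjusted p = 0.138) did not. In thinned cells Gip (-1.36), Reg4 (-0.58) and Fabp6 (1.66) passed it, and Muc2 (-0.09), Mt2 (1.98), Mt3 (1.73), Ubtf (0.44) and Ung (-0.21) did not.

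Few genes differed detectably between S phase cells and G2/M cells, the other dividing class, in their change with genotype. Of 10079 genes, the change was higher in S phase cells for 3 (0.0298%) and lower for 7 (0.0695%, 0.0992% either way), with 479 at an unadjusted p below 0.05 and 0 called by DESeq2 (45 at an unadjusted p below 0.05). The 3 were Mt2 (1.37), Ubtf (1.35) and Xist (0.51). The 7 were the absorptive genes Apoa1 (-0.85), Apoa4 (-1.22), Fabp1 (-0.74) and Rbp2 (-0.82), the hormone gene Gip (-0.59), and Gng13 (-3.16) and Lrmp (-2.90), which are known from tuft cells. Lrmp stood at -0.73 without fl/fl 2 (edgeR adjusted p = 0.955) and at -4.45 without ΔIEC 2. Mt2 ran from 0.60 without ΔIEC 2 and 0.84 without fl/fl 2, neither past the threshold, to 2.67 without fl/fl 1. Without fl/fl 1, Apoa1 stood at -0.23, Apoa4 at -0.34, Fabp1 at -0.20 and Rbp2 at -0.18, none past the threshold, and with at least 6 S phase genes Apoa1 (0.10), Fabp1 (0.85) and Rbp2 (0.26) changed sign. Gng13 had 8.12, 33.9, 0 and 5.16 CPM in S phase cells, so fl/fl 2 stood apart. In G2/M cells Ubtf had a log2 fold change of 0.07.

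**Figure D5:**
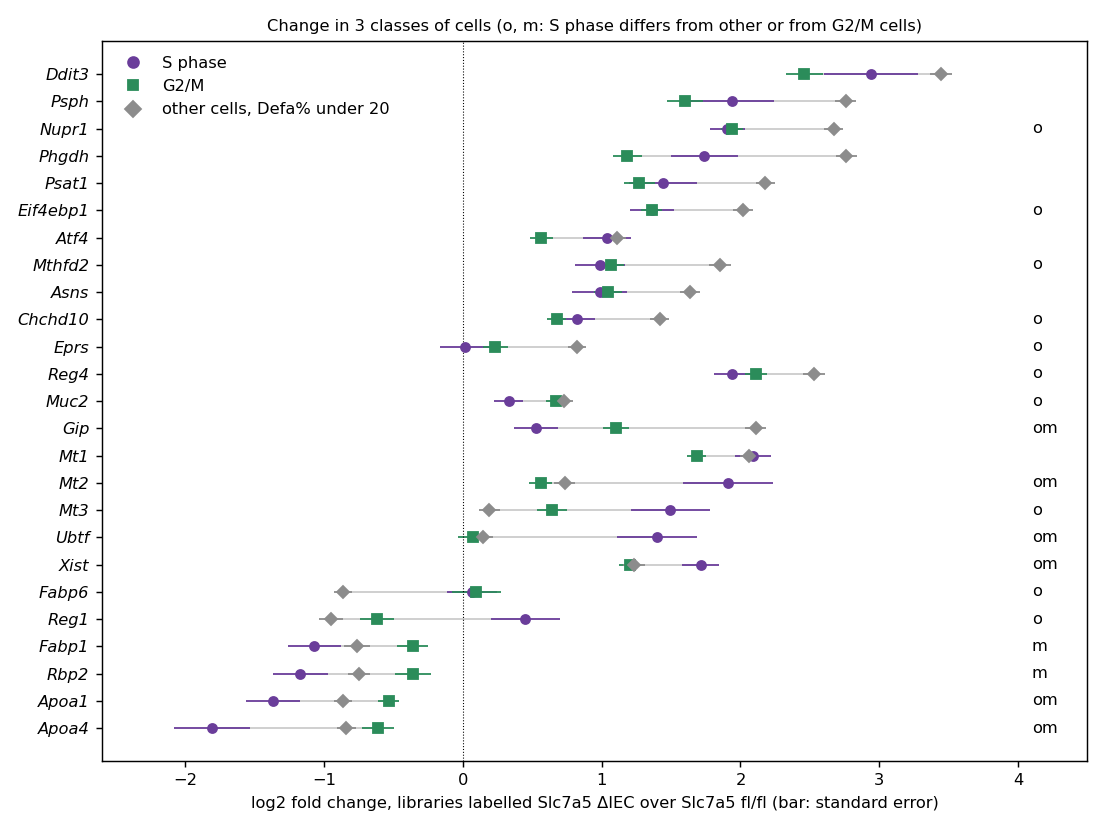
Log2 fold change of ΔIEC over fl/fl with its standard error (edgeR) in S phase cells (circles), G2/M cells (squares) and other cells (diamonds) for genes named in the text. The letters o and m at the right mark genes whose change in S phase cells differed from that in other cells or in G2/M cells at an adjusted p below 0.05. Nupr1 lies at 1.90 in S phase cells and 2.67 in other cells, and Gip at 0.52 and 2.11.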

How the data were processed

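Per the labels, crypt epithelial cells were sorted and sequenced in 4 libraries with the 10x 3′ kit (version 2). The authors deposited 1 matrix of raw UMI counts per library for 27998 genes on mm10. Submitters' processing notes name Cell Ranger 2.1.1, whereas the methods of the study name another version. The filter that set the lowest total per cell, which differed between libraries, is not given in the sources used here. No deposited value was normalized. All columns were used.

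Members were found on the counts as deposited. Counts were summed per library and class, and edgeR 4.0.16 (glmQLFit, glmQLFTest, TMM scaling, R 4.3.3) was applied to genes passing filterByExpr, with Benjamini-Hochberg adjustment over all genes tested and a threshold of 0.05. Class by genotype terms were fitted over the sums of both classes. Levels are CPM, the UMIs of a gene scaled to the same class total, and log2 ratios of levels used a pseudocount of 5. DESeq2 1.42.0 was an alternative, as were other scalings, filters, member rules, cells thinned to 3500 UMIs, a common lower limit of 9670 UMIs, doublets left out (30 nearest neighbours, 0.8% expected per 1000 cells, doublets otherwise kept), each library left out, and the replicate number as a block. In thinned cells both limits of the rule, S phase and mitotic, were 3 of 8 genes unless stated. On simulated counts for 4966 genes, the genotype test recovered 65.3% of 2-fold and 98.9% of 4-fold changes with 11 false calls. The self-test of the S phase against other cells term recovered 25% and 59% with 5 false calls. That of the G2/M term recovered 29.0% and 73.5% with 6. Each self-test gave all genes the same spread between libraries beyond counting error. Genes with a wider spread were therefore not represented.

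Shares were compared by exact permutation (Python 3.11.15, scipy 1.17.1), and binomial intervals are exact 95% Clopper-Pearson. Depths are total UMIs per library and per class. The members and gene lists were chosen with earlier results of these data known, so they are not independent evidence. Genes were named by rule: Slc7a5, Slc3a2, the 16 genes of the rule, called members of each list (up to 6), the 10 largest rises and 10 largest falls with at least 20 CPM in the higher group and no overlap, the 5 largest class by genotype terms each way, and the 15 highest and 10 lowest genes against other cells with at least 50 CPM. Other names were added for context. A few genes that met these rules are not reported here.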

Additional observations from a re-analysis of the deposited data

Results flagged for a closer look

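The genotype change in S phase cells differed from that in other cells, by the class by genotype term of edgeR, for 10 genes named here. On the log2 scale, the difference of changes (S phase minus other cells) was 2.05 for Aurka, 2.04 for Cenpf and 1.64 for Cdca8, all genes of mitosis, 1.61 for the linker histone Hist1h1b and 1.86 for the sulfate donor enzyme Papss2. Cenpf was 1 of the 8 mitotic genes whose number was capped in S phase cells, so its value is a description only. With 1 library left out Aurka ran from 0.86 to 4.05 and Papss2 from 1.23 to 2.74. These genes were sparse in S phase cells, with Aurka at 11.4, 1.78, 4.77 and 14.2 CPM (fl/fl 1, fl/fl 2, ΔIEC 1, ΔIEC 2) and Papss2 at 11.4, 5.34, 22.3 and 11. When G2/M cells were left out of the other cells, the differences were 0.79 for Aurka, 0.98 for Cenpf, 0.53 for Cdca8 and -0.17 for Hist1h1b, none past the threshold, whereas Papss2 stood at 2.35 and passed it.

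In the other direction, the difference was -2.44 for Gng13, -1.84 for Steap1, -1.57 for Mettl7b, -1.55 for Gip and -1.42 for Cyb5r1. With 1 library left out Gng13 ran from -1.33 without fl/fl 2 to -10.66 without ΔIEC 2. Without G2/M cells among the other cells, Gip (-1.44), Steap1 (-2.20) and Cyb5r1 (-2.00) passed the threshold, and Gng13 (-1.96) and Mettl7b (-1.33) did not.

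Against G2/M cells, the difference was 1.35 for Ubtf, 0.51 for Xist, -3.16 for Gng13, -1.22 for Apoa4 and -0.59 for Gip. None of these 5 passed the threshold against G2/M cells in DESeq2. Gng13 had 0 CPM in ΔIEC 1 and 33.9 in fl/fl 2.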

How the results depend on the processing

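For the genotype test in S phase cells (72 higher, 55 lower), no filter on low counts gave 110 higher, DESeq2 12 and 23 (60 of the 127 had no adjusted p), thinning 17 and 24, the common lower limit 36 and 6, at least 6 of 8 S phase genes 19 and 18, and Defa% under 5 28 and 32. Leaving out 1 library gave 17 to 80 higher and 15 to 53 lower, with 17 and 15 without fl/fl 1 and 33 and 26 without ΔIEC 2. With the replicate number as a block, 103 were higher and 76 lower, including all 127 called without it. The 2 pairs share only a number.

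For the term against other cells (54 higher, 31 lower), library size scaling gave 90 and 19, at least 10 UMIs in every library 62 lower, DESeq2 14 and 5, thinning 23 and 8, the common limit 12 and 2, at least 6 genes 8 and 2, Defa% under 5 27 higher, and doublets left out 57 lower. Leaving out 1 library gave 13 to 50 higher and 5 to 46 lower, with 34 and 46 without fl/fl 2, 18 and 7 without ΔIEC 1 and 13 and 5 without ΔIEC 2. Thinning moved the median of this term by 0.17. Leaving G2/M cells out of the other cells was chosen after seeing the data.

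For the term against G2/M cells (3 higher, 7 lower), no filter gave 6 higher and doublets left out 8 higher. The minimum of 10 UMIs, DESeq2, thinning, the common limit and at least 6 genes each gave 0 and 0. Leaving out 1 library gave 2 to 8 higher and 2 to 24 lower, with 8 and 24 without fl/fl 2, 2 and 4 without ΔIEC 1 and 8 and 2 without ΔIEC 2.

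The difference in S phase share (-1.86 points) was -0.622 after thinning with 3 of 8 genes, -0.476 with 5 of 8, -0.530 with the common limit, -1.15 with at least 6 genes and -0.383 with no limit on Defa%. Single genes named in the text changed sign in Fabp1 (0.43, at least 6 genes), Defa24 (-0.19 thinned, -0.089 at least 6 genes, -0.13 Defa% under 5), Hist1h2ap (0.26 without fl/fl 1, -1.45 without fl/fl 2), Hif1a (-0.65, thinned), Hist1h1b against other cells (-0.17, without G2/M cells) and, against G2/M cells with at least 6 genes, Apoa1 (0.10), Fabp1 (0.85) and Rbp2 (0.26). Of the 127 called genes, 16 were past the threshold in every alternative that gave them an adjusted p, among them Nupr1, Trib3, Chac1, Atf5, Phgdh, Eif4ebp1, Mt1, Reg4 and Defa21. DESeq2 gave none to Trib3, Chac1, Atf5 and Phgdh. Chac1 was also not tested in thinned cells or with at least 6 genes, so its call was not checked at equal depth. Trib3, Chac1 and Atf5 had too few fl/fl UMIs to be tested under the minimum of UMIs in every library. The causes were not tested. With 46 to 153 cells a library, small changes of low genes were beyond these counts.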
